A study of Mus musculus with 84 samples.

Results

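The nuclear genes of mitochondrial oxidative phosphorylation were described in colon RNA of mice that received gut bacteria from donors on 1 of 2 diets. The members were the rows of the gene count table whose symbol starts with Ndufa, Ndufb, Ndufc, Ndufs, Ndufv, Uqcr, Cox4, Cox5, Cox6, Cox7, Cox8 or Atp5, with the Ndufaf assembly factors left out. The rule uses names and no measured value. It found 81 of 25494 rows, 38 of complex I, 8 of complex III, 18 of complex IV and 15 of complex V. The remaining 2, Atp5s and Atp5sl, carry the prefix but encode no subunit of the ATP synthase. The other members were assigned to complexes by symbol alone. Ndufa4 and Ndufa4l2 are therefore counted in complex I and Cox7a2l in complex IV throughout. Of the 81, 78 passed the filter on low counts, among 15893 genes tested.

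All recipients in the RNA comparison were male C57BL/6 mice raised germ-free and colonised as young adults with feces of male donors. The 4 groups are named by the recipient's diet and then by the donor's. HFDHFB mice ate a high fat diet (HFD) and received bacteria of HFD-fed donors (HFB), HFDLFB mice ate the HFD and received bacteria of donors on a low fat diet (LFD; bacteria LFB), LFDHFB mice ate the LFD with HFB, and LFDLFB mice ate the LFD with LFB. Each group had 3 RNA-seq libraries, and the labels do not say that they came from separate animals, so the p-values measure the spread between these libraries. No recipient was left germ-free, so each group is a comparison of one transplant with another. Peak lists of H3K27ac from the same 4 groups (11 libraries) were used for the promoters. So were lists from conventionally raised mice kept on either diet for longer than the recipients. Those of H3K27ac and H3K4me1 came from males and females, and those of HNF4a from males.

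Oxidative phosphorylation takes place in the inner mitochondrial membrane. Complex I passes electrons from NADH to ubiquinone, complex III passes them on to cytochrome c, and complex IV (cytochrome c oxidase) gives them to oxygen, while protons are pumped out across the membrane. Complex V, the ATP synthase, lets the protons return and makes ATP. Most subunits are encoded in the nucleus and a few of the core ones in mitochondrial DNA. Absorptive colonocytes are known for oxidising butyrate, a product of gut bacteria, in their mitochondria. None of the 13 protein genes of mitochondrial DNA had a row in the table, so only the nuclear side was measured here.

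The libraries held 39904191 to 48026846 counts. The tissue was labelled colon epithelium. For RNA of the transplantation study, the paper describes scraping cells from the colon. All 8 epithelial markers (Epcam, Krt8, Krt18, Krt19, Cdh1, Vil1, Cldn7 and Lgals4) had at least 11609 counts in every library. Other cell types were present as well. The 8 smooth muscle markers summed to between 1112 and 7147 CPM (counts scaled to library size with edgeR's TMM factors, given as CPM). HFDLFB replicates 1 and 2 were the highest in the 8 adipocyte markers, at 1198 and 2956 CPM. They were also highest in the 7 mesothelial markers, at 405 and 505 CPM. In the other 10 libraries the adipocyte and mesothelial sums were 32.2 to 963 CPM and 49.7 to 208 CPM. LFDHFB replicate 3 held the 963 CPM, and the next library, HFDHFB replicate 2, held 415 CPM. In such bulk RNA, fewer cells of a type and less RNA per cell cannot be told apart.

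The members were among the more abundant transcripts of the tissue. Together they took 1.95% to 2.82% of the counts of a library. Per length of transcript, 73 of the 78 members lay above the median of all genes tested (6.42 RPKM, the CPM divided by the transcript length in kilobases). The median over the subunits was 138 RPKM in complex I, 487 in complex III, 559 in complex IV and 467 in complex V, so the NADH dehydrogenase genes were the least abundant of the 4 sets as a group. The leading genes were Cox4i1, a regulatory subunit of complex IV, at 1627 RPKM, Uqcrh, the hinge protein of complex III, at 1212 RPKM, and Atp5b, the catalytic beta subunit of the ATP synthase, at 1205 RPKM. Cox6c and Cox8a followed within complex IV at 1118 and 1095 RPKM, Uqcr10 and Uqcrb within complex III at 717 and 618 RPKM, and Atp5g3 and Atp5a1 (the alpha subunit) within complex V at 945 and 725 RPKM. The highest complex I genes were Ndufa6 at 669 RPKM, Ndufb9 at 561 RPKM and Ndufa1 at 559 RPKM.

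Where a subunit has several isoform genes, the ubiquitous form held nearly all of the signal. On the RPKM scale Cox4i1 made up at least 99.9% of Cox4i1 and Cox4i2 in every library, Cox6a1 at least 99.9% of Cox6a1 and Cox6a2 (the latter a heart and muscle form), Cox6b1 at least 99.3% beside the testis form Cox6b2, and Cox8a at least 99.0% beside the muscle form Cox8b. Ndufa4, which is now counted as a complex IV subunit in spite of its name, made up at least 99.6% beside Ndufa4l2. Cox7a was the exception. Its muscle form Cox7a1 held 12% to 20.5% of the sum of Cox7a1, Cox7a2 and Cox7a2l (a supercomplex assembly factor), and Cox7a2 held 61.5% to 69.0%. The 3 genes for the c-ring subunit of the ATP synthase encode the same mature protein. They held 74.7% to 78.6% (Atp5g3), 15.5% to 19.0% (Atp5g1) and 5.56% to 7.29% (Atp5g2) of their sum. The transcripts of Atp5g1 and Atp5g2 match 1 and 3 other genomic sites, as defined below, and that of Atp5g3 matches none. These shares are therefore uncertain.

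Not tested were 3 members, Ndufs5, Cox7b2 and Cox8c. Cox7b2 and Cox8c, testis forms, had 0 counts in all 12 libraries. Ndufs5, an accessory subunit of complex I, had at most 1 read in any library. Its locus (mm9, chromosome 4, 123389953 to 123395429, minus strand) overlaps a second row on the same strand, BC002163, over 5452 bp, and that row had 0 counts as well. The counts of this gene therefore say nothing of its expression. A further 13 members overlap another row of the table in part, 11 of them on the opposite strand, and the transcripts of 14 members, Ndufs5 among them, match at least 1 other genomic site at 97% identity or more over at least 50% of their length. Atp5l, with 4 such sites, Atp5g2 with 3 and Cox7c with 3 are the least certain in level.

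RefSeq promoter windows (GRCm38.p6, 250 bases before to 50 after a gene's start) were found for 67 of the 81 members and were searched on both strands for 5 short motifs. The core of NRF1, a factor known for driving nuclear genes of respiration, was searched as GCATGCGC and was found in 9 of the 67 members (13.4%), beside 5.23% of the 12489 genes tested for RNA that had a window and 3.05% of all 27025 genes with one. The YY1 core AAGATGGCG was found in 8 members (11.9%), beside 2.99% and 1.64%. The GABP core CCGGAAGT was found in 5 members (7.46%, beside 7.77% and 4.31%), the ERR motif TCAAGGTCA in 1 member (1.49%, beside 0.296% and 0.466%) and the HNF4a half-site pattern CAAAGNNCA in 6 members (8.96%, beside 6.45% and 7.27%). At least 1 of the first 4 motifs was in 22 members (32.8%), against 15.2% and 8.93%. A match is a match of letters and was not tested for binding.

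The NRF1 matches are shown in the gene's direction, 30 bases each with the core in capitals, so that the bases around it can be compared.
Atp5g2 (chr15:102671068-102671097, minus strand): ctccggccgcGCATGCGCagagccttccct
Atp5k (chr5:108434428-108434457, minus strand): tcactgcggcGCATGCGCctttctggcttc
Atp5l (chr9:44920963-44920992, minus strand): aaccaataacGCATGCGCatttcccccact
Cox6a1 (chr5:115349099-115349128, minus strand): ggaacggggcGCATGCGCgctctcgctcca
Ndufa11 (chr17:56717694-56717723, plus strand): tgcactgcgcGCATGCGCgcacgccttgtc
Ndufa6 (chr15:82354355-82354384, minus strand): ccgcggtagaGCATGCGCattgcagagccc
Ndufa8 (chr2:36049327-36049356, minus strand): cgctggagacGCATGCGCagatggtaccgg
Uqcr11 (chr10:80406806-80406835, minus strand): tcgccttcacGCATGCGCtatacgtctgca
Uqcrc1 (chr9:108936668-108936697, plus strand): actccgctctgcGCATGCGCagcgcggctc
Their first bases lay from 240 bases before the start (Atp5l) to base 33 after it (Uqcrc1).

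The YY1 matches are shown in the same way, because they share both direction and place.
Atp5j (chr16:84835045-84835074, minus strand): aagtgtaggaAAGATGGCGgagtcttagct
Atp5j2 (chr5:145191499-145191528, minus strand): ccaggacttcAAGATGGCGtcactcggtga
Atp5sl (chr7:25619430-25619459, plus strand): gttacctggcAAGATGGCGgcgcccagagc
Ndufa9 (chr6:126849096-126849125, minus strand): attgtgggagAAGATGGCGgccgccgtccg
Ndufc1 (chr3:51408914-51408943, minus strand): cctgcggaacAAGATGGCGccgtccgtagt
Ndufs4 (chr13:114388045-114388074, minus strand): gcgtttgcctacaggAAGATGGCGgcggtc
Ndufs6 (chr13:73328433-73328462, minus strand): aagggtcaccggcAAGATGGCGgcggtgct
Ndufs7 (chr10:80249463-80249492, plus strand): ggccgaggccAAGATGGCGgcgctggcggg
All 8 ran in the gene's direction. In 7 of them the first base of the motif lay at base 23 to 36 of the transcribed part, and in Atp5j 88 bases before the start. The motif holds the letters of a start codon, ATG.

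The 250 bases before the start are shown for the member of smallest interaction p among those with an NRF1, a GABP or an HNF4a match in a stretch that no other RefSeq gene overlaps, with the matches in capitals. Cox6a1 holds overlapping NRF1 matches on both strands.
Cox6a1 (chr5:115348959-115349208, minus strand): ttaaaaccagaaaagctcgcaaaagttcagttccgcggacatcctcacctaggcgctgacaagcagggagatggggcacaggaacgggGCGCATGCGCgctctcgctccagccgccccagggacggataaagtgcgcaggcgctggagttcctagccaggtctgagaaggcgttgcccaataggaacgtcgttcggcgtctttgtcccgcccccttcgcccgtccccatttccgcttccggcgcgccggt
Uqcr11 (chr10:80406822-80407071, minus strand): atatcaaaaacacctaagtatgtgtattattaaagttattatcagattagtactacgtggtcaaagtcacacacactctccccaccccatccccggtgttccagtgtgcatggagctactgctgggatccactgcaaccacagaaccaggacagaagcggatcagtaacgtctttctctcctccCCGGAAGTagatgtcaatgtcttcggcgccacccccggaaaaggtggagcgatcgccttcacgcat
Ndufb10 (chr17:24724424-24724673, minus strand): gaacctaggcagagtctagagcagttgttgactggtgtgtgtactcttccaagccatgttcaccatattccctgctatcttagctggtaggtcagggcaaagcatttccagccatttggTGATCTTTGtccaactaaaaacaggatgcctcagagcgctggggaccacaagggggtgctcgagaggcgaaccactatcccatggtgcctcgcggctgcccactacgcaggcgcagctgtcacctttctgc

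Across the 12 libraries the members kept together. The summed CPM of all members was 23585, 25610 and 28244 in HFDHFB, 21534, 21118 and 23943 in HFDLFB, 21617, 21162 and 18261 in LFDHFB, and 25683, 23069 and 22977 in LFDLFB. The 2 diets thus ordered the donors differently, with HFB recipients at the top of the scale on the HFD and at the bottom on the LFD, and the neighbouring groups overlapped. The mean was highest in HFDHFB for 70 of the 78 members and lowest in LFDHFB for 70 of the 78. Among all genes tested, 27.2% had their highest mean in HFDHFB and 20.3% their lowest in LFDHFB. Relative to each gene's own mean, the median member lay at +0.33 (log2 CPM) in HFDHFB replicate 3, the highest library, and at -0.34 in LFDHFB replicate 3, the lowest. Replicates of 1 group were apart as well, since HFDHFB replicate 1 lay at +0.04. The 4 complexes followed the same course, with medians of +0.32, +0.43, +0.36 and +0.34 in HFDHFB replicate 3 and of -0.33, -0.36, -0.39 and -0.34 in LFDHFB replicate 3 for complexes I, III, IV and V.

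**Figure D1:**
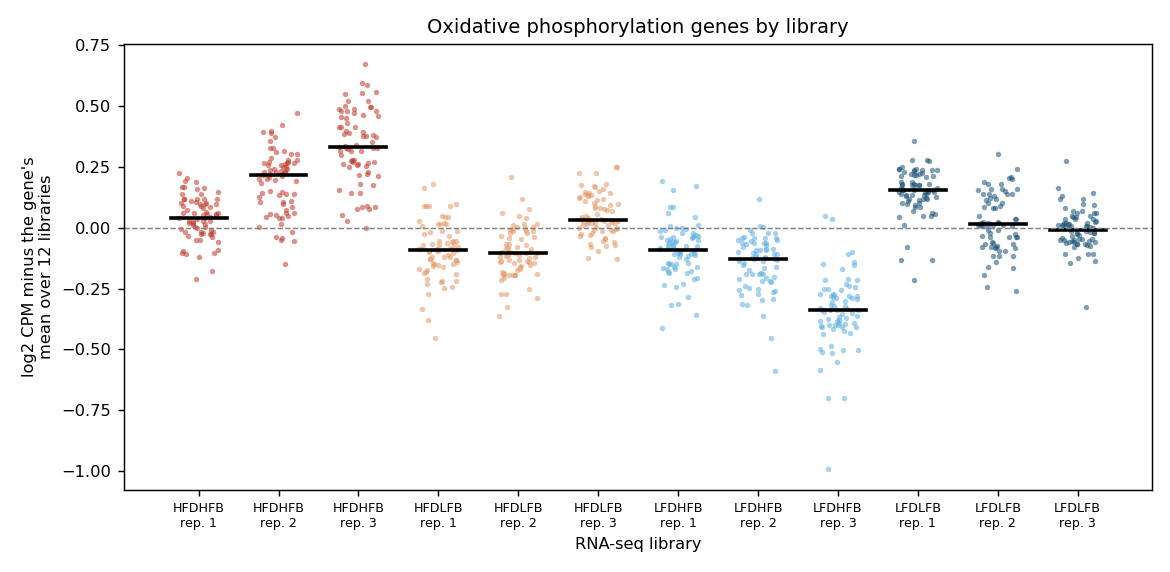
Level of each oxidative phosphorylation gene in each RNA-seq library, as log2 CPM minus the gene's mean over the 12 libraries; each point is 1 gene, black bars are the median over 78 genes, and the 5 genes of lowest level (Cox8b, Cox6b2, Ndufa4l2, Cox4i2, Cox6a2) count in the bar but are not drawn. The medians run from -0.34 in LFDHFB replicate 3 to +0.33 in HFDHFB replicate 3.

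The first comparison asked how donor bacteria acted in recipients on the HFD (HFDHFB against HFDLFB). No member passed edgeR's quasi-likelihood test at an adjusted p of 0.05, and no gene of the 15893 did (0% called). The smallest adjusted p of a member was 0.495. The direction was nonetheless shared. The fold change was positive for 74 of 78 members, with a median of 0.24 on the log2 scale beside 0.00 for all genes. An unadjusted p under 0.05 with higher levels in HFDHFB was found for 19 members (24.4%), against 4.85% of all genes, and in 23 members (29.5%) every HFDHFB library lay above every HFDLFB library, against 8.11% of all genes. By complex, the positive fold changes were 36 of 37, 8 of 8, 13 of 16 and 15 of 15 in complexes I, III, IV and V, with medians of 0.25, 0.28, 0.21 and 0.21. The negative ones were Cox4i2, Cox6a2 and Cox8b, which are barely expressed here, and Ndufs1, the largest core subunit of complex I, at -0.03 ± 0.18 (SE).

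Atp5g1 led this comparison. Its level was 155, 190 and 182 CPM in HFDHFB and 126, 126 and 136 CPM in HFDLFB, so that the groups did not overlap. The log2 fold change was 0.44 ± 0.11 (SE, edgeR unadjusted p = 0.00155, adjusted p = 0.495). Ndufb7, an accessory subunit of complex I, was at 110, 129 and 129 CPM against 96.7, 97.8 and 94.6 CPM, with a log2 fold change of 0.35 ± 0.10 (adjusted p = 0.495). Ndufs7, the core subunit with the last iron-sulfur cluster before ubiquinone, was at 97.96, 127 and 129 CPM against 95.4, 86.6 and 92.7 CPM. Both separated the groups, but in each the lowest HFDHFB library was replicate 1. In complex III the smallest p belonged to Uqcr11 (log2 fold change 0.38 ± 0.16) and in complex IV to Cox5a (0.32 ± 0.13), with adjusted p of 0.517 in both.

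With DESeq2's Wald test in place of edgeR, 1 member passed here, Atp5g1 (log2 fold change 0.42, adjusted p = 0.0232), while 0.12% of all genes passed with higher levels in HFDHFB. Shares for DESeq2 are of the genes to which it gave an adjusted p. These were 15872 here and in both comparisons against LFDLFB.

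On the LFD the same pair of donors went the other way. LFDHFB against LFDLFB gave negative fold changes for 75 of 78 members with a median of -0.25, beside 0.02 for all genes, and the 3 positive ones were Cox4i2, Cox8b and Atp5s. No member and no other gene passed edgeR's test (0% called, smallest adjusted p of a member 0.975). An unadjusted p under 0.05 with lower levels in LFDHFB was found for 22 members (28.2%), against 1.72% of all genes. In 48 members (61.5%) every LFDHFB library lay below every LFDLFB library, against 5.57% of all genes. Complex I was negative in 37 of 37, complex III in 8 of 8, complex IV in 14 of 16 and complex V in 15 of 15. DESeq2 called 0 members and 0.0063% of all genes lower in LFDHFB. Its unadjusted p was under 0.05 for 25 members, and the share of all genes at that threshold was not computed.

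Ndufb6, an accessory subunit of the complex I membrane arm, had the smallest p in this comparison. It was at 85.6, 71.1 and 70.9 CPM in LFDHFB and at 98.6, 101 and 102 CPM in LFDLFB, with a log2 fold change of -0.41 ± 0.11 (edgeR unadjusted p = 0.00332, adjusted p = 0.975). Uqcrq, a small subunit of complex III, was at 178, 196 and 188 CPM against 260, 260 and 245 CPM, a log2 fold change of -0.44 ± 0.15. Neither gene overlapped between the groups. The smallest p in complex V belonged to Atp5g3 (-0.35 ± 0.13) and in complex IV to Cox5b (-0.31 ± 0.14).

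The diets were compared next within recipients of HFB (HFDHFB against LFDHFB), where the members differed most. The fold change was positive for 77 of 78 members, with a median of 0.40 beside -0.03 for all genes, and Cox4i2 was the exception. No member and no other gene passed edgeR's test (0% called), and the smallest adjusted p of a member was 0.3. An unadjusted p under 0.05 with higher levels in HFDHFB was found for 49 members (62.8%), against 5.25% of all genes, and 59 members (75.6%) separated the groups in that direction, against 7.47%. Complex I held 29 of the 49, complex III 5, complex IV 8 and complex V 7.

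DESeq2 called 16 members higher in HFDHFB, where 1.01% of the 11878 genes with an adjusted p passed in that direction. Of these, 12 belong to complex I (Ndufb11, Ndufb7, Ndufc2, Ndufa12, Ndufb6, Ndufa5, Ndufs8, Ndufa2, Ndufs7, Ndufs3, Ndufa13 and Ndufa7), 2 to complex III (Uqcr11 and Uqcrq) and 2 to complex V (Atp5g1 and Atp5g3). Complex IV had none. So the count of called members rests on the choice of test.

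Ndufb11, an accessory subunit of complex I encoded on the X chromosome, had the smallest p. Its level was 192, 241 and 249 CPM in HFDHFB against 153, 145 and 144 CPM in LFDHFB, a log2 fold change of 0.63 ± 0.12 (edgeR unadjusted p = 0.000362, adjusted p = 0.3). Its row shares 62 bp with Rbm10 on the opposite strand, which averaged 34.6 CPM. Ndufc2 was at 149, 170 and 156 CPM against 111, 85.7 and 115 CPM (0.60 ± 0.13). Uqcr11, a small subunit of complex III, was at 161, 204 and 262 CPM against 132, 134 and 125 CPM (0.68 ± 0.16). None of these 3 genes overlapped between the groups. Cox6c had the smallest p in complex IV (0.51 ± 0.16) and Atp5g1 in complex V (0.47 ± 0.11).

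In recipients of LFB the diets were closer (HFDLFB against LFDLFB). The median over members was -0.11 beside 0.00 for all genes, 62 of 78 were negative, and 0 members had lower levels at an unadjusted p under 0.05 in edgeR, against 1.76% of all genes. Complex V was negative in 15 of 15. In 10 members (12.8%) every HFDLFB library lay below every LFDLFB library, against 6.62% of all genes. No member and no other gene passed edgeR's test (0% called, smallest adjusted p of a member 0.881), and DESeq2 called 0 members and 0.0315% of all genes lower in HFDLFB.

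The member with the smallest p was among the 16 with a positive fold change. Cox8b, the muscle form of a complex IV subunit, was at 2.15, 3.51 and 1.93 CPM in HFDLFB and 1.06, 1.40 and 1.46 CPM in LFDLFB, with no overlap and a log2 fold change of 0.95 ± 0.37 (edgeR unadjusted p = 0.0263, adjusted p = 0.881). It was highest in HFDLFB replicate 2, the library with the most adipocyte marker RNA, whose part in the result was not tested. Cox7a1, the muscle form with the clearest expression, was at 62.1, 64.9 and 89.3 CPM in HFDHFB, 60.2, 59.6 and 70.4 CPM in HFDLFB, 70.4, 60.3 and 31.7 CPM in LFDHFB and 74.1, 58.3 and 76.3 CPM in LFDLFB. It was lowest in LFDHFB replicate 3, like the members as a whole.

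**Figure D2:**
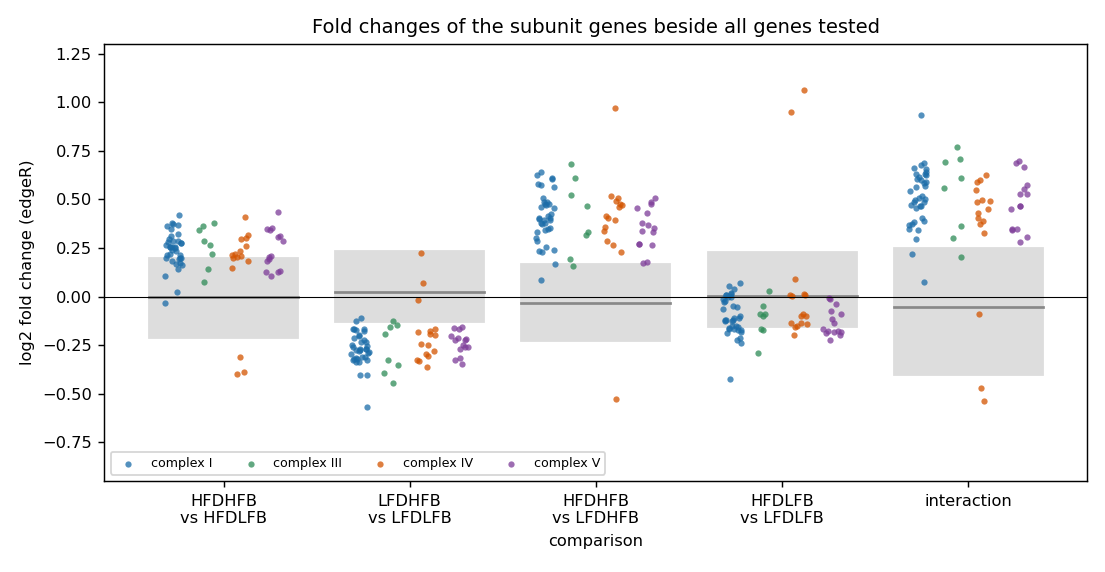
Log2 fold changes (edgeR) of the subunit genes in the 5 comparisons, 1 point per gene, coloured by complex; grey boxes span the quartiles of all 15893 genes tested and the grey line is their median. The points lie mostly above the box in HFDHFB against LFDHFB and in the interaction, and mostly below it in LFDHFB against LFDLFB.

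The interaction, which is the log2 fold change by donor on the HFD minus that on the LFD, was positive for 75 of 78 members with a median of 0.49, beside -0.05 for all genes. No member and no other gene passed edgeR's test (0% called, smallest adjusted p of a member 0.386). An unadjusted p under 0.05 in the positive direction was found for 48 members (61.5%), against 6.34% of all genes. Complex I held 29 of them, complex III 6, complex IV 6 and complex V 7, and the medians were 0.51, 0.58, 0.44 and 0.47. DESeq2 called 9 members, where 0.568% of the 12492 genes with an adjusted p passed in the positive direction. They were Atp5g1, Atp5g3, Ndufb7, Ndufb6, Ndufs7, Ndufs8, Ndufa12, Ndufb11 and Ndufs3.

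Atp5g1 had the smallest p again. To its levels on the HFD come 128, 126 and 125 CPM in LFDHFB and 156, 159 and 139 CPM in LFDLFB. The HFDHFB libraries overlapped those of LFDLFB, and the HFDLFB libraries overlapped those of LFDHFB. The interaction was 0.70 ± 0.15 on the log2 scale (edgeR unadjusted p = 0.000639, adjusted p = 0.386). Ndufb7 (0.63 ± 0.14), Uqcr11 (0.77 ± 0.22) and Cox5b (0.60 ± 0.20) had the smallest p in complexes I, III and IV. Cox5b, which binds a zinc ion in complex IV, was at 321, 380 and 423 CPM in HFDHFB, 303, 281 and 331 CPM in HFDLFB, 305, 297 and 245 CPM in LFDHFB and 393, 322 and 333 CPM in LFDLFB. Its HFD groups overlapped and its LFD groups did not. The transcripts of Atp5g1, Uqcr11 and Cox5b each match other genomic sites.

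**Figure D3:**
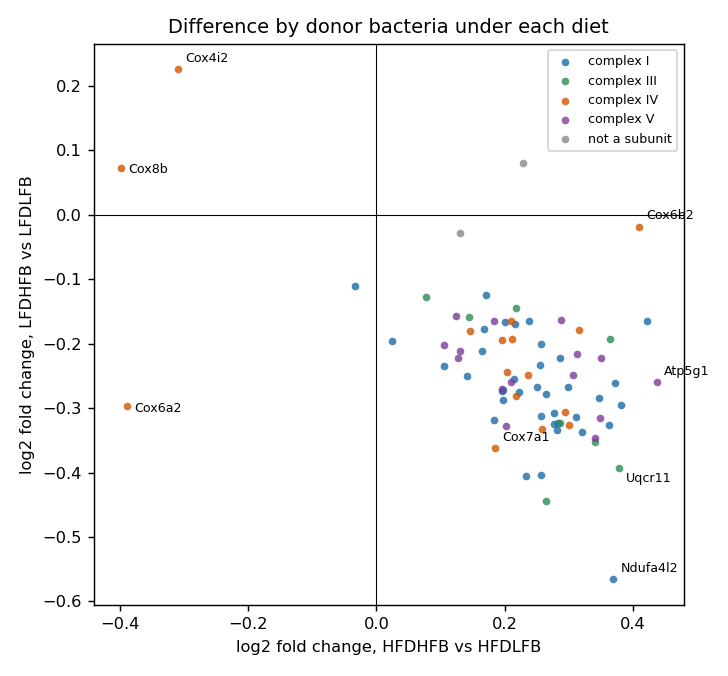
Log2 fold change by donor bacteria in recipients on the HFD (x axis) and on the LFD (y axis), 1 point per gene, coloured by complex. Most points lie to the lower right, higher with HFB on the HFD and lower with HFB on the LFD; the genes on the left that are far from the others (Cox4i2, Cox6a2, Cox8b) have mean levels of 0.203 to 1.78 CPM.

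**Figure D4:**
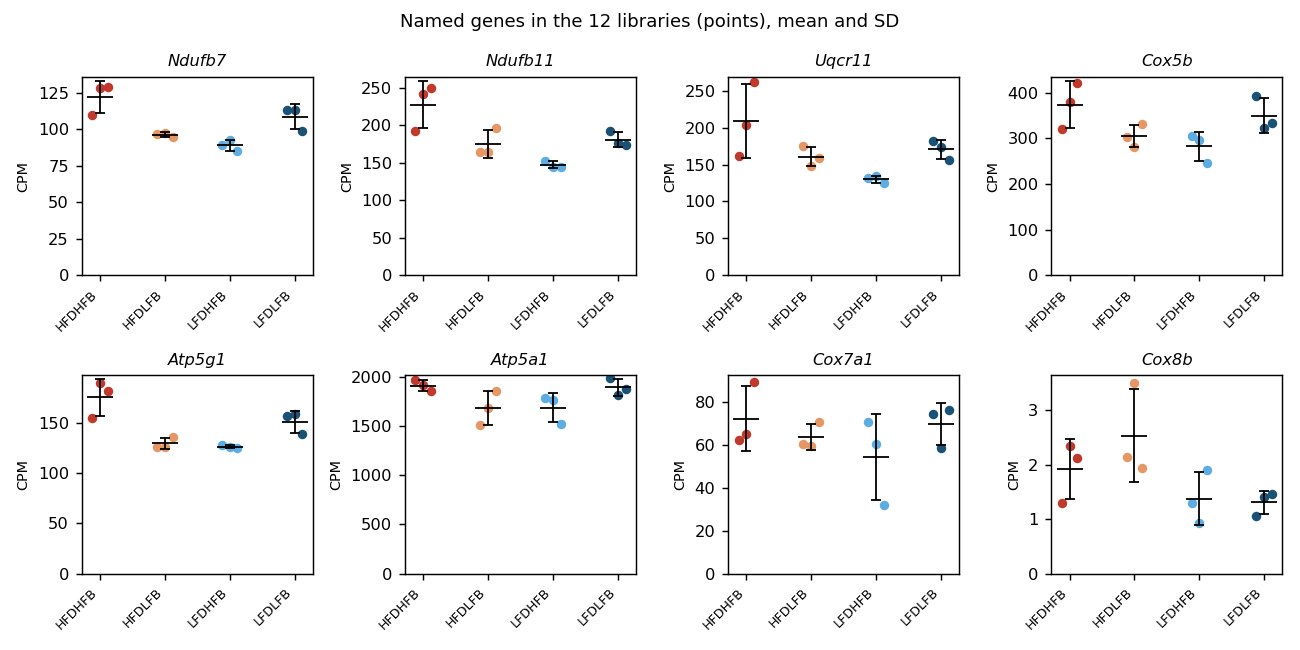
CPM of 8 named genes in the 12 libraries (points, 3 per group), with the group mean and SD as bars; axes start at 0. Ndufb7 and Atp5g1 are separated between donors on the HFD, and Cox8b is highest in 1 HFDLFB library.

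The members are short transcripts, and other short transcripts had like values. Transcripts of up to 0.75 kb account for 40 of the 78. Of the genes that are no members, 143 had a transcript of that length and a mean of at least 50 CPM, a division made after the data were seen. Their medians were 0.22 in HFDHFB against HFDLFB, -0.23 in LFDHFB against LFDLFB, 0.37 in HFDHFB against LFDHFB, -0.09 in HFDLFB against LFDLFB and 0.47 in the interaction, close to those of the members. In longer transcripts the other genes had smaller values than the members. For the interaction the members' medians were 0.53, 0.47 and 0.37 in transcripts of up to 0.75 kb, of 0.75 to 1.5 kb and of 1.5 to 3 kb (40, 25 and 13 genes), while those of the other genes were 0.47, 0.27 and 0.08 (143, 547 and 1411 genes), and -0.16 over 3 kb. When the trend on transcript length was taken out within each library, the members' medians became 0.07, -0.10, 0.10, -0.07 and 0.15 in the order above, and 60, 12, 63, 24 and 64 of the 78 were positive. The members at an unadjusted edgeR p under 0.05 then numbered 2, 5, 8, 3 and 9. These counts take either direction. The share of all genes under this setting was not computed, so they have no background to be read against. The cause of the trend on length was not tested.

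**Figure D5:**
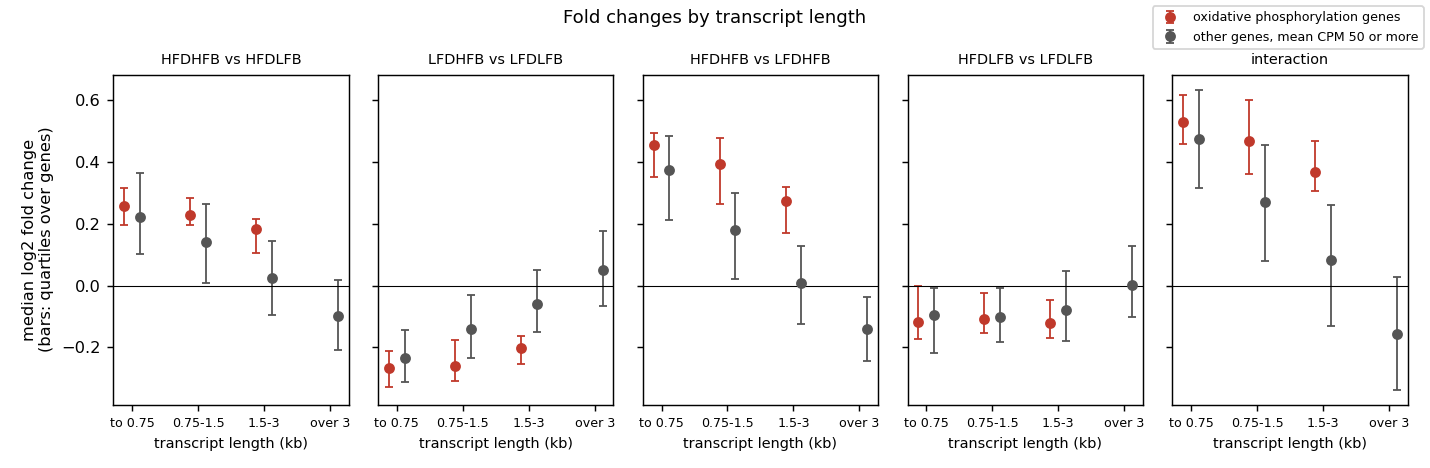
Median log2 fold change (points) and quartiles over genes (bars) by transcript length for the oxidative phosphorylation genes (red) and for other genes of at least 50 CPM (grey), in the 5 comparisons. In transcripts of up to 0.75 kb both sets lie together, and at 1.5 to 3 kb the members are at 0.37 and the other genes at 0.08 in the interaction.

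Ribosomal protein genes, a list also added after the data were seen, gave values like those of the members. The interaction median was 0.61 over 78 genes of the cytosolic ribosome and 0.45 over 77 genes of the mitochondrial ribosome. In HFDHFB against LFDHFB these medians were 0.44 and 0.31.

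No gene of the cell type marker lists passed edgeR's adjusted test in any comparison, where 0% of all genes were called, and their levels are given here as values. The 8 epithelial markers summed to 12868 to 15112 CPM in HFDHFB, 10530 to 13659 in HFDLFB, 9808 to 15520 in LFDHFB and 13845 to 14985 in LFDLFB. These ranges overlapped, and the lowest library was LFDHFB replicate 3, which was also lowest in the members. The median interaction of these markers was 0.32, with 8 of 8 positive. Between donors it was 0.16 on the HFD (7 of 8 positive) and -0.14 on the LFD (8 of 8 negative). Between diets it was 0.06 with HFB (4 of 8 positive) and -0.24 with LFB (8 of 8 negative). In place of TMM, the libraries were also scaled to the epithelial markers. The members' medians were then 0.05 and -0.08 for the donors on the HFD and on the LFD. For the diets with HFB and with LFB they were 0.30 and 0.16, and for the interaction 0.12. The medians of all genes moved as well, to -0.21, 0.215, -0.16, 0.28 and -0.45 in that order. With LFB the members' median turned positive but stayed below that of all genes. The members at an unadjusted edgeR p under 0.05 were then 0, 0, 11, 2 and 0 in that order. Those counts take either direction, and the share of all genes under this scaling was not computed. Smooth muscle markers reached 7147 CPM in HFDHFB replicate 3 and 5403 CPM in LFDHFB replicate 3, the highest and the lowest library of the members. LFDHFB replicate 3 also held 963 CPM of adipocyte markers and the highest sum of neuron and glia markers, at 271 CPM. Goblet cell markers had a median interaction of 0.90 over 7 genes, smooth muscle markers of 0.76 over 8 and proliferation markers of 0.62 over 8, and all of these genes were positive. Absorptive colonocyte markers had a median of -0.21, with 5 of 7 negative, and in HFDHFB against LFDHFB of -0.27, with 6 of 7 negative. The interaction median was -0.49 for neuron and glia markers and -0.34 for endothelial markers, with 8 of 8 negative in both lists. It was -0.31 for leukocyte markers (5 of 8 negative) and -0.10 for fibroblast markers (4 of 8 negative). Adipocyte and mesothelial markers were lower in HFDHFB than in HFDLFB for 8 of 8 and 7 of 7 genes, with medians of -3.08 and -2.37. Striated muscle markers stayed at 9.19 to 32.1 CPM in sum, and Myh4 was at 0 in all libraries. Without HFDLFB replicates 1 and 2 the median of the members was 0.17 in HFDHFB against HFDLFB, beside 0.03 for all genes. It was -0.02 in HFDLFB against LFDLFB, beside -0.02 for all genes, and 0.39 in the interaction, beside 0.02. The 1 library left was assumed to vary like the other groups, and LFDHFB replicate 3 was kept. Counts by p-value are not given for this fit, which had 1 library in HFDLFB. The part of these cell types in the result was not tested further.

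Other genes of the pathway went along in part. None of those below passed edgeR's adjusted test in any comparison, where 0% of all genes were called, so they are given by direction for the interaction. The electron carrier cytochrome c and the genes of complex II and Cyc1 were positive in 6 of 6 with a median of 0.40. Cyc1, the heme subunit of complex III that the prefixes leave out, had 0.64 ± 0.16 (edgeR unadjusted p = 0.00245, adjusted p = 0.386). Its levels were 384, 442 and 462 CPM in HFDHFB, 336, 337 and 375 CPM in HFDLFB, 332, 326 and 296 CPM in LFDHFB and 426, 398 and 386 CPM in LFDLFB, separated between donors on either diet. Assembly factors were positive in 34 of 41 with a median of 0.27. An unadjusted edgeR p under 0.05 in the positive direction was found for 11, beside 6.34% of all genes. Coa6, a copper-related factor of complex IV, had the smallest p at 0.67 ± 0.18. Enzymes of the TCA cycle were positive in 15 of 17 with a median of 0.20, and the malate dehydrogenase Mdh2 had the smallest p (0.42 ± 0.15). Enzymes of glycolysis were positive in 14 of 16 with a median of 0.19, and none had an unadjusted p under 0.05 in edgeR.

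The regulators of mitochondrial biogenesis did not share the direction. Of 18 tested, 8 were positive and 10 negative in the interaction, with a median of -0.04 (smallest p for Ppara, a nuclear receptor of fatty acid oxidation, -1.94 ± 0.85). Ppara was highest in LFDHFB replicate 3 at 200 CPM, where the other libraries held 21.9 to 87.0 CPM. Among the adenine nucleotide, phosphate and porin carriers and their companions, 9 of 11 were positive with a median of 0.19. Atpif1, the inhibitor of the ATP synthase, had 0.61 ± 0.28. Ucp3, an uncoupling protein, ran against them at -6.55 ± 1.77 (edgeR unadjusted p = 0.00341, adjusted p = 0.386). Its level was 3.29 and 5.95 CPM in HFDLFB replicates 1 and 2, the 2 libraries richest in adipocyte markers, and 0.0230 to 1.73 CPM elsewhere.

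At the promoters, the mark H3K27ac, found at active promoters and enhancers, was present for nearly all members irrespective of group. A peak lay within 1000 bp of the gene start in all 11 libraries of the 4 groups for 74 of 81 members (91.4%), beside 44.7% of all genes. For peaks, all genes are the 25494 rows, which include genes too low in counts to be tested. The share among the tested genes alone was not computed. Single libraries held 74 or 75 members. Cox4i2, Cox6a2, Cox7b2, Cox8c and Ndufa4l2 had no peak in any of the 11, which are genes of little or no RNA here, and Cox6b2 and Cox8b had one in some libraries only. Ndufs5 had the peak in all 11 libraries, in contrast to its 0 or 1 reads. The lists hold no heights, so a change in the amount of the mark could not be seen. In conventionally raised mice of both sexes 74 members carried H3K27ac in all 12 libraries (91.4%, beside 44.7% of all genes). H3K4me1, a mark of enhancers and promoter flanks, was carried by 67 in all 12 (82.7%, beside 49.6% of all genes).

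HNF4a is a nuclear receptor of the intestinal epithelium. The paper describes HNF4a ChIP-seq in the HFDHFB and HFDLFB groups, which was not used here. The HNF4a peak lists used came from conventionally raised male mice only. Peaks within 1000 bp of the start were found for 18 and 26 members in the 2 HFD libraries and for 35 and 20 in the 2 LFD libraries (22.2%, 32.1%, 43.2% and 24.7%, beside 12.9%, 14.2%, 17.2% and 14.6% of all genes). The diets overlapped in these counts. In all 4 libraries 8 members had a peak, namely Atp5b, Cox5a, Ndufa2, Ndufab1 (the mitochondrial acyl carrier protein), Ndufb6, Ndufs1, Ndufs6 and Uqcrfs1, the Rieske iron-sulfur protein of complex III. That is 9.88% of the members beside 4.36% of all genes, and 66.7% of the members had a peak in at least 1 library beside 30.3% of all genes.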

How the data were processed

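RNA-seq counts per gene were deposited by the authors as whole numbers, aligned with STAR 2.5 and counted with featureCounts 1.5.0-p1 on mm9 per the submitters' processing notes. Whether counting used strand is not given in the sources used here. The authors deposited peak intervals (other columns: start and end) from SICER for histone marks and from HOMER for HNF4a, called per library and with no heights.

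Counts were tested with edgeR 4.0.16 (TMM, filterByExpr, quasi-likelihood test, 4 groups in 1 fit, Benjamini-Hochberg over all 15893 genes). The study's DESeq2 (1.42.0 here) was an alternative, as were a block on replicate number, other scalings and filters, and fits with single libraries omitted. The scripts were tested on simulated data. RPKM used GENCODE vM1 transcripts of the longest coding sequence, which 81 of 81 members matched. The members and lists were chosen with earlier results of these data known. Named genes were those of smallest p per complex and comparison, the 3 of highest RPKM per complex, isoform families, members not tested, and at most 4 per other list.

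Totals of 39904191 to 48026846 counts leave little counting error for most members, and the 3 libraries per group limit the precision.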

Additional observations from a re-analysis of the deposited data

Results flagged for a closer look

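In 17 members every HFDHFB library lay above every HFDLFB library while every LFDHFB library lay below every LFDLFB library. The libraries were thus ordered by donor in opposite directions on the 2 diets. These members were picked for this pattern, and its cause was not tested. Among all genes tested, 210 (1.32%) did so, and the 17 are 21.8% of the members tested. None of the 17 interactions passed edgeR's test after adjustment. Their log2 interactions were 0.63 (Ndufb7), 0.69 (Ndufs7), 0.66 (Ndufa7), 0.63 (Ndufa11), 0.62 (Ndufc2), 0.60 (Ndufa12), 0.59 (Ndufs3), 0.57 (Ndufa5), 0.54 (Ndufs8), 0.50 (Ndufc1) and 0.39 (Ndufa8) in complex I. They were 0.61 (Uqcrc1) in complex III, 0.49 (Cox5a) and 0.405 (Cox6b1) in complex IV, and 0.70 (Atp5g1), 0.69 (Atp5g3) and 0.55 (Atp5h) in complex V. With the trend on transcript length taken out, the median of the 17 interactions went from 0.60 to 0.24. Of the 17, 15 became smaller by more than 1.5 times, among them Atp5g1 (0.31), Ndufb7 (0.22), Cox5a (0.12) and Ndufa8 (0.0585), and Cox6b1 turned to -0.04. The other 2 were Uqcrc1 (0.47) and Ndufa11 (0.62). They were assigned transcripts of 1655 and 2661 bp, and their values rest on these assigned lengths.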

How the results depend on the processing

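The count of members called was 0 in edgeR under every alternative run, and DESeq2 called 1 in HFDHFB against HFDLFB, 16 in HFDHFB against LFDHFB and 9 in the interaction. Leaving out each library in turn, the members' median ranged from 0.12 to 0.31 for HFDHFB against HFDLFB, from -0.30 to -0.16 for LFDHFB against LFDLFB, from 0.28 to 0.46 for HFDHFB against LFDHFB, from -0.17 to -0.04 for HFDLFB against LFDLFB and from 0.38 to 0.56 for the interaction. HFDHFB replicate 3 mattered most, with medians of 0.12 and 0.38 without it. LFDHFB replicate 3 and LFDLFB replicate 1 moved the LFD comparison to -0.16 and -0.18, and without LFDLFB replicate 1 HFDLFB against LFDLFB was -0.04. The members at an unadjusted edgeR p under 0.05 ranged from 2 to 39, 6 to 28, 26 to 53, 0 to 5 and 29 to 53 in the same order. The shares of all genes in these fits were not computed. Scaling to the epithelial markers was chosen after seeing the data. It gave medians of 0.0452, -0.0779 and 0.124 for the donors on the HFD, on the LFD and the interaction. For HFDLFB against LFDLFB the members' median reversed to 0.16, beside 0.28 for all genes under this scaling. Atp5g1 (0.0453) and Ndufa10 (0.0308) reversed there too. In all 5 comparisons this scaling moved the median of all genes as well. Removing the trend on length, also added, gave 0.0661, -0.104, 0.104 and 0.155 for the 4 comparisons other than HFDLFB against LFDLFB, and the interaction of Cox6b1 reversed to -0.0383. The causes of these changes were not tested. The replicate block gave medians of 0.24, -0.25, 0.39, -0.11 and 0.49, with 0 members called in all 5 comparisons, while same-numbered libraries deviated with correlations of -0.59 to 0.45 and 1 of 12 libraries deviated most like its own number, so the numbers were not taken as pairs. With HNF4a peaks required over the start itself 3 members remained in place of 8, and 0 with a peak over at least 50% of the window, since these peaks averaged 220 to 242 bp. H3K27ac gave 70 to 74 members under its alternatives. Read depth limits mainly the 5 tested members with a mean under 3 CPM (Cox6a2, Cox4i2, Ndufa4l2, Cox8b and Cox6b2).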
